A study of Mus musculus with 121 samples.

Results

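Dbp, Tef and Hlf encode the PAR bZIP transcription factors, named for a proline and acidic amino acid rich domain beside their basic leucine zipper, and Nfil3 (E4BP4) encodes a repressor with a related zipper. These 4 genes were followed, out of 31053 genes counted, in 62 RNA sequencing libraries of mouse fibroblasts. They were matched by gene symbol to their Ensembl identifiers, and all 4 passed the filter on low values (at least 1 CPM, a count scaled to 1000000 counts per library, in at least 3 libraries).

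PAR bZIP factors and NFIL3 bind the same short DNA element, the D-box, through which the former activate and the latter represses transcription. Dbp and Tef are output genes of the circadian clock, driven by CLOCK and BMAL1 (encoded by Arntl) through E-boxes, whereas Nfil3 is repressed by the REV-ERB proteins and activated by the ROR proteins. In liver, where they were studied most, the 2 arms of this system run nearly opposite in time and their targets include enzymes of detoxification.

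The cells were an immortalised line from a knock-in mouse with a luciferase reporter at the Per2 gene (genotype PER2::LUC sv), so all groups share this allele and are 1 line. Medium high or low in glucose and insulin was changed every 12 h for 3 cycles. This gave HL (high, then low), LH (low, then high) and HH (high throughout). By the paper, 12 h of a free-running stage without these cycles followed, and cells were then collected 6 times, 4 h apart. HL had 21 libraries, LH 22 and HH 19, with 2 to 4 libraries for each treatment and collection. Times are given in h after the first collection. The labels also give an hour for each library, but the same hour recurs at different collections, and it was not used as a time axis. The statistics statement of the study describes its replicates in general as biological and its experiments as independent, whereas the labels do not name the culture of each library, so p-values measure the spread between these libraries.

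The group of a library can be read in 2 ways, and they disagree. By its title, each library has a treatment, a collection and a replicate number. By the library number in the name of its deposited counts, looked up in the read summary that the study supplies, 22 libraries (all of HH and the first collection of HL) keep their title, 35 carry another name of HL or LH, and 5 are not listed. Values are therefore given by titles and by library numbers, for the 57 libraries listed in the latter case. In that case LH has 1 library at 16 h. HH is the same in both.

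Total counts per library, with sequencing runs summed, ranged from 104912 to 11619095 with a median of 5825880, and the next to lowest was 2136819. The library with 104912 counts was LH replicate 2 of the second collection by its title. It held 2 Dbp, 11 Tef, 3 Hlf and 3 Nfil3 counts, so that its Nfil3 value of 28.6 CPM had an exact Poisson 95% interval of 5.9 to 83.6 CPM, which covers counting error only. Among the other 61 libraries, the counts per library were 13 to 890 for Dbp, 191 to 2236 for Tef, 47 to 939 for Hlf and 7 to 137 for Nfil3. All 10 fibroblast markers averaged at least 35.3 CPM in these 61 libraries, with a sum of 18700 to 43400 CPM per library. At least 1 CPM was averaged by 1 of 4 epithelial markers (sum 0.178 to 4.57 CPM, with the keratin gene Krt5 at 0), 1 of 3 endothelial (22.8 to 270 CPM), 2 of 3 leukocyte (1.42 to 7.06 CPM), 0 of 3 muscle and 0 of 2 fat cell markers. Their part in the results was not tested.

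Dbp (ENSMUSG00000059824) lies on the forward strand of chromosome 7 (GRCm38, 45705088 to 45710203), Tef (ENSMUSG00000022389) on the forward strand of chromosome 15 (81802421 to 81826863), Hlf (ENSMUSG00000003949) on the reverse strand of chromosome 11 (90336536 to 90390895) and Nfil3 (ENSMUSG00000056749) on the reverse strand of chromosome 13 (52967209 to 52981073). The end of Dbp overlaps exons of Sphk2, a sphingosine kinase gene on the opposite strand. Sphk2 ranged only from 19.6 to 39.3 CPM, had a JTK P of 1 in each treatment by titles and had a Pearson r of -0.15 with Dbp over the 61 libraries. The start of Tef overlaps exons of the antisense gene Gm17597, which averaged 0.0288 CPM. No annotated gene overlapped Hlf or Nfil3.

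Because Dbp, Tef and Nfil3 moved together or opposite to each other, the 250 bases before each RefSeq start (GRCm38.p6, both strands) were searched for the E-box CACGTG, its variant CACGTT, the ROR and REV-ERB half-site AGGTCA, and the D-box forms TTATGTAA and TTACGTAA. Of 32851 such windows in the genome, 6.02% held CACGTG, 3.85% CACGTT, 14% AGGTCA, 0.819% TTATGTAA and 0.113% TTACGTAA. Tef has 2 starts, each with CACGTG, and the Nfil3 window held AGGTCA read on the other strand. The windows of Dbp and Hlf held none of these letters. The matches are shown with their neighbouring bases, 5′ to 3′ on the strand of the gene, with the motif in capitals:
Tef, first start, chr15:81802536-81802565: gctgtggctcCACGTGctgcagctggcaca
Tef, second start, chr15:81811266-81811295: cctggcccagCACGTGtctacatcgtttgg
Nfil3, chr13:52981040-52981061: cgctcggaacTGACCTactaac
The E-box began 127 bases before the first Tef start and 138 before the second, and the Nfil3 match began 12 bases before its start. These distances are from RefSeq starts, and by GENCODE all 3 matches lay inside the annotated gene. The match at the first Tef start and that of Nfil3 were in exons, downstream of the GENCODE start, and the match at the second Tef start was in an intron. A match describes letters in a window and does not show binding.

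In HH, whose libraries have the same names in both readings, Dbp had the widest fold change of the 4 between collections. In CPM, the swing of Tef was wider. In bulk RNA, a change in the share of cells that express a gene cannot be told apart from a change per cell. The Dbp libraries held 2.44, 4.94, 6.55 and 6.83 CPM at the first collection and 3.02, 4.77 and 5.85 CPM at 4 h. They held 31.2, 50.5 and 62.4 CPM at 8 h and 53.9 and 60.05 CPM at 12 h. Every library of 8, 12 and 16 h lay above every library of the other 3 collections, and the mean at 12 h was 12.5 times that at 4 h. Tef rose in the same hours, from 56.9, 57.1, 60.6 and 69.4 CPM at the first collection to 199.6 and 243.3 CPM at 12 h. It stood at 169, 185 and 192 CPM at 16 h and at 105 to 109 CPM in all 4 libraries of 20 h, above every library of the first collection. The groups of 12 h and of the first collection did not overlap. Here and below, collections that part were picked from the same values, and the share of all genes that part as well was not counted.

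Nfil3 ran the other way in HH. It held 9.0, 9.02, 13.3 and 22.1 CPM at the first collection, fell to 1.89, 4.74 and 5.29 CPM at 8 h, and stood at 8.76, 9.69, 11.1 and 12.6 CPM at 20 h. No library of 8, 12 or 16 h reached the level of any library of the other 3 collections. Hlf was the most scattered of the 4. At 12 h its HH libraries held 35.1 and 117.8 CPM and at 20 h 34.9, 47.7, 62.3 and 133.9 CPM, which overlapped the 20.0, 28.4, 33.8 and 36.8 CPM of the first collection. The highest Hlf value of a collection belonged to HH replicate 4 in 4 of the 5 collections that have a replicate 4.

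**Figure D1:**
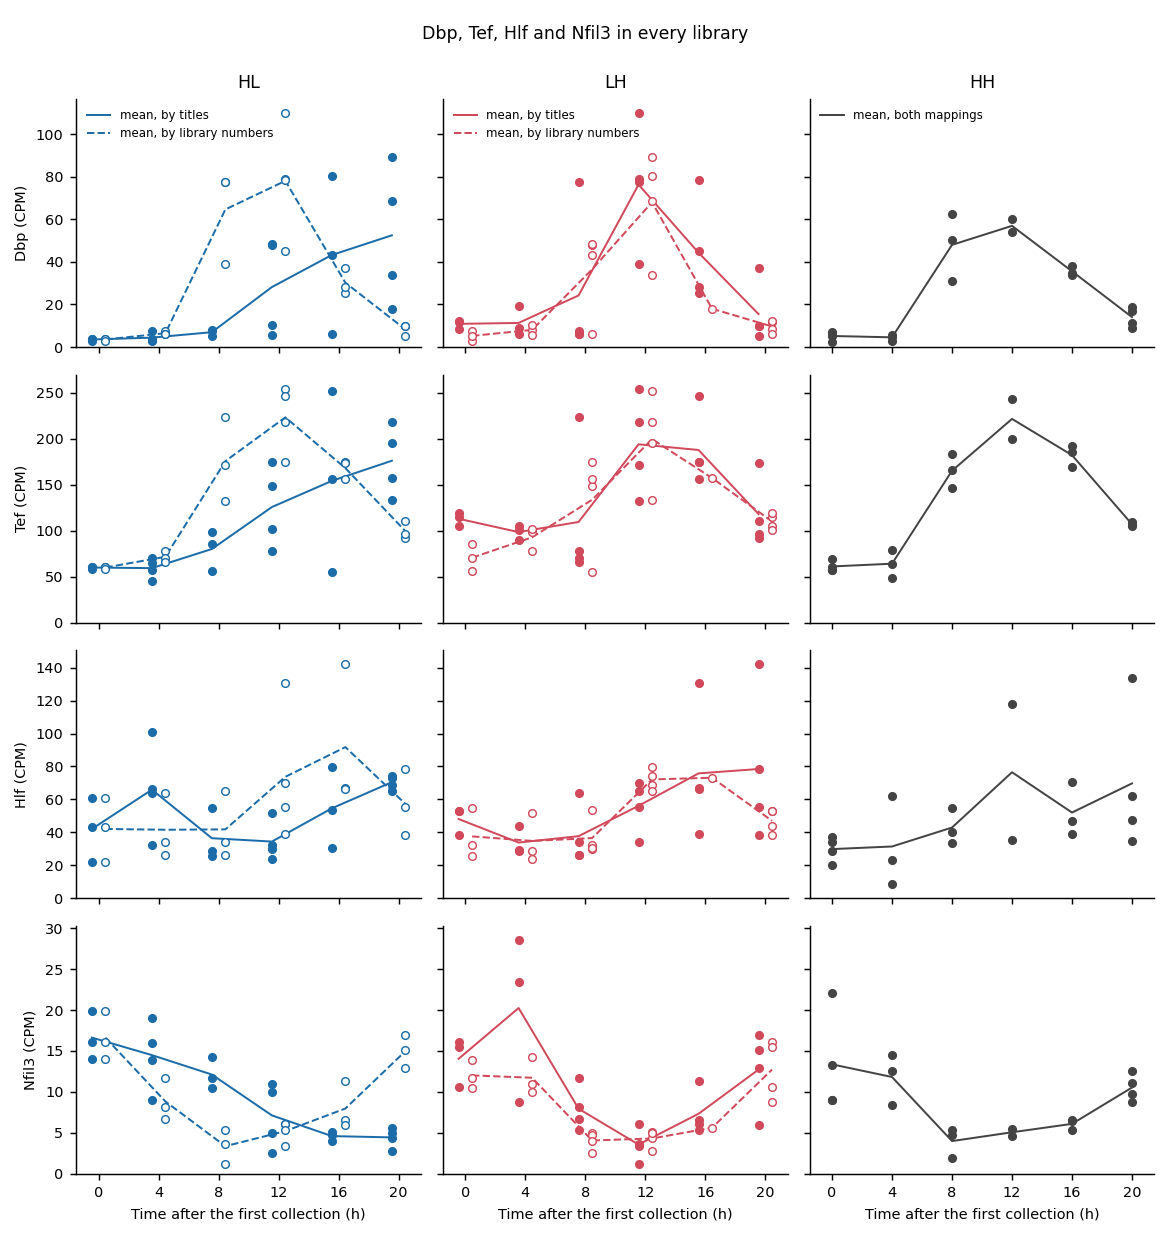
CPM of Dbp, Tef, Hlf and Nfil3 (rows) against h after the first collection in HL, LH and HH (columns), 1 point per library, filled and with a solid line of means by titles, open and with a dashed line by library numbers. In HH, Dbp and Tef peak at 12 h and Nfil3 is lowest at 8 h, while in HL the solid and dashed lines part for all 4 genes.

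JTK_CYCLE, a rank test for a 24 h rhythm in 1 treatment, was read at P below 0.01 without adjustment over genes, with the Benjamini-Hochberg adjusted P beside it. In HH, 3 of the 4 genes passed (Dbp, Tef and Nfil3), against 1.22% of all genes tested. The exact JTK P was 0.000233 for Dbp, 2.36e-05 for Tef, 0.00217 for Nfil3 and 0.153 for Hlf, and Tef ranked 3 among the 13292 genes tested. The adjusted P was 0.343, 0.105, 0.533 and 1.0 in the same order, so none of the 4 passed adjustment, which 0.00752% of all genes did. Without HH replicate 2, 3 or 4, the P of Nfil3 rose to 0.0137, 0.0144 and 0.0585, and with the first or the second sequencing run alone it was 0.0133 and 0.0155.

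Cosine curves fitted by edgeR to the counts gave the sizes and times of these rhythms. In HH by titles, Dbp had an amplitude (the height of the peak over the middle of the curve, on the log2 scale) of 1.94 ± 0.31 (SE, n = 19) and a peak at 12.5 ± 0.56 h. Tef had an amplitude of 1.01 ± 0.14 with a peak at 13.1 ± 0.49 h, and Nfil3 0.89 ± 0.18 with a peak at 23.6 ± 0.74 h. Hlf had 0.69 ± 0.21 with a peak at 15.4 ± 1.12 h. The intervals of 1 SE around the Dbp and Tef peaks overlapped, and the order of the peaks was not tested. By the cosine fit with Benjamini-Hochberg adjustment, Dbp (adjusted p = 0.002), Tef (4.33e-05) and Nfil3 (0.033) passed 0.05 in HH and Hlf (0.347) did not, against 0.158% of all genes by titles and 0.371% by library numbers.

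**Figure D2:**
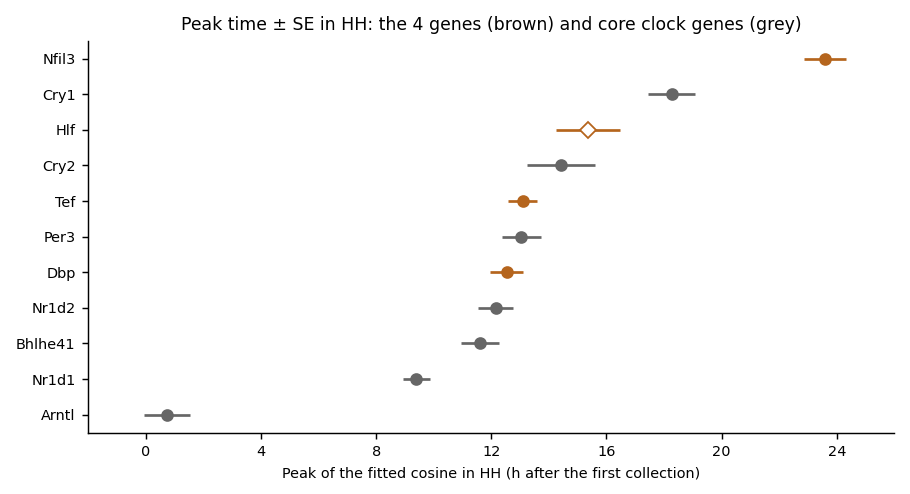
Peak time of the fitted cosine in HH by titles, in h after the first collection, with bars of 1 SE, for the 4 genes (brown) and the 7 core clock genes past JTK P 0.01 (grey). The open diamond is Hlf, which did not pass. Dbp and Tef lie beside Nr1d2 and Per3, and Nfil3 beside Arntl once the day is closed.

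Of a list of 16 core clock genes, 7 passed JTK in HH (1.22% of all genes): Arntl, Per3, Cry1, Cry2, Nr1d1, Nr1d2 and Bhlhe41. By titles, 1 of the 16 passed in HL (0.466% of all genes) and 5 in LH (0.933%), and by library numbers 8 of 15 tested passed in HL (1.03%) and 5 of 15 in LH (1.31%). Nr1d1, which encodes the repressor REV-ERBα, peaked at 9.39 ± 0.47 h, before Dbp. Nr1d2, encoding REV-ERBβ, peaked at 12.2 ± 0.60 h, and the period gene Per3 at 13.0 ± 0.68 h, and their intervals of 1 SE overlapped those of Dbp and Tef. Arntl, which encodes BMAL1, peaked at 0.73 ± 0.80 h, about opposite to Dbp and next to Nfil3. Nfil3 and Arntl are both known as targets of REV-ERB.

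In HL, the 2 readings placed the peaks of the same genes at different times. By titles, Dbp held 2.73, 3.88 and 3.96 CPM at the first collection, 5.84, 10.4, 48.1 and 48.3 CPM at 12 h and 17.99, 33.8, 68.7 and 89.5 CPM at 20 h. By library numbers, it held 38.9, 77.5 and 77.7 CPM at 8 h, 45.1, 78.5, 79.0 and 109.9 CPM at 12 h and 4.95, 9.86 and 10.1 CPM at 20 h. By titles the libraries of 12 h fell into a low and a high pair, and by library numbers every library of 8 and 12 h lay above every library of the other 4 collections. Tef was likewise highest at 20 h by titles (133 to 218 CPM in 4 libraries) and at 12 h by library numbers (174.6 to 254.3 CPM in 4 libraries). Nfil3 was lowest at 20 h by titles (2.815 to 5.60 CPM) and at 8 h by library numbers (1.22 to 5.27 CPM).

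By titles, 2 of the 4 genes passed JTK in HL (Dbp, exact P = 0.00365, and Nfil3, exact P = 0.00475), against 0.466% of all genes. The adjusted P was 1.0 for both, and no gene passed adjustment in HL by titles. Tef (exact P = 0.0201) and Hlf (exact P = 0.29) did not pass. Both calls were lost when single replicate numbers were left out, and Tef passed without HL replicate 2 (exact P = 0.00293). The P of Dbp rose to 0.0274, 0.0354 and 0.0955 without HL replicate 1, 3 or 4, and that of Nfil3 to 0.0378, 0.0587 and 0.0247 without HL replicate 1, 2 or 4. With TMM scaling of the CPM the count stayed at 2 but the genes changed, as Dbp (exact P = 0.0127) was lost and Tef (exact P = 0.00787) passed. By library numbers, 3 of the 4 passed (Dbp, Tef and Nfil3), against 1.03% of all genes. Dbp and Tef shared the P of 1.44e-06, with an adjusted P of 0.00953 (below 0.05 in 0.0227% of all genes), and Nfil3 had 4.01e-05 with an adjusted P of 0.0883. With the second sequencing run alone the exact P of Nfil3 was 0.0176, so that 2 of the 4 passed. Hlf, with an exact P of 0.0675, did not pass.

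The fitted peaks in HL by titles were 16.5 ± 0.51 h for Dbp, 16.6 ± 0.57 h for Tef, 22.5 ± 1.53 h for Hlf and 3.98 ± 0.65 h for Nfil3 (SE, n = 21). By library numbers they were 11.5 ± 0.31 h, 12.6 ± 0.33 h, 15.3 ± 1.14 h and 21.8 ± 0.53 h (n = 19). The fitted peaks of Dbp, Tef and Nfil3 thus lay later by titles than by library numbers, with the Nfil3 peak by titles falling after the close of the 24 h, and Dbp and Nfil3 lay nearly opposite in both. The shift between the readings was not tested, and the cosine fit of Hlf passed in neither (adjusted p = 0.977 and 0.444). The cosine fit passed adjustment for Dbp, Tef and Nfil3 in both readings, against 0.0451% of all genes by titles and 0.189% by library numbers. The amplitude of Dbp was 2.09 ± 0.30 by titles and 2.34 ± 0.19 by library numbers, that of Tef 0.84 ± 0.13 and 0.98 ± 0.08, and that of Nfil3 0.98 ± 0.17 and 1.08 ± 0.15.

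In LH the fitted peaks of the readings lay closer than in HL, though values at single collections still differed. By titles, Dbp held 38.9, 77.7, 79.0 and 109.9 CPM at 12 h, above the 8.62, 11.9 and 12.1 CPM of the first collection, but its libraries of 8 h held 6.0, 6.02, 7.48 and 77.5 CPM. By library numbers, it held 33.8, 68.7, 80.2 and 89.5 CPM at 12 h, 2.64, 5.32 and 7.74 CPM at the first collection and 6.3, 43.3, 48.1 and 48.3 CPM at 8 h. In each reading 1 library of 8 h stood apart from the other 3, high by titles and low by library numbers. Nfil3 was lowest at 12 h by titles (1.22, 3.36, 3.55 and 6.05 CPM) and at 8 h by library numbers (2.52, 3.94, 4.73 and 4.99 CPM).

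By titles, Hlf (exact P = 0.00816) and Nfil3 (exact P = 0.00143) passed JTK in LH, 2 of the 4 genes against 0.933% of all genes, while Dbp (P = 0.0472) and Tef (P = 0.0428) did not. The adjusted P was 0.93 for Hlf and 0.705 for Nfil3, and no gene passed adjustment in LH by titles. Without the library of 104912 counts the P of Hlf was 0.0197, without LH replicate 2 or 4 it was 0.201, and the P of Nfil3 was 0.0195, 0.0224 and 0.0137 without LH replicate 2, 3 or 4. With the second sequencing run alone the P was 0.143 for Nfil3 and 0.0618 for Hlf, and that of Hlf was 0.0239 with the first run alone and also with TMM scaling. By library numbers all 4 passed, against 1.31% of all genes, with an exact P of 0.000171 for Dbp, 0.00084 for Tef, 0.00728 for Hlf and 0.00146 for Nfil3. None of these 4 had an adjusted P below 0.475. Without LH replicate 1, 2 or 3 by library numbers, 1 of the 4 passed each time.

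The cosine peaks in LH by titles were 13.2 ± 0.67 h for Dbp, 14.5 ± 0.93 h for Tef, 17.7 ± 1.21 h for Hlf and 0.40 ± 0.65 h for Nfil3 (SE, n = 22). By library numbers they were 12.0 ± 0.39 h, 13.3 ± 0.41 h, 14.9 ± 0.98 h and 22.8 ± 0.68 h (n = 19). By titles the intervals of 1 SE around the Dbp and Tef peaks overlapped, and by library numbers they did not, in LH as in HL. The order of these peaks was not tested. The cosine fit passed adjustment for Dbp and Nfil3 by titles (0.158% of all genes) and for Dbp, Tef and Nfil3 by library numbers (0.242%).

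**Figure D3:**
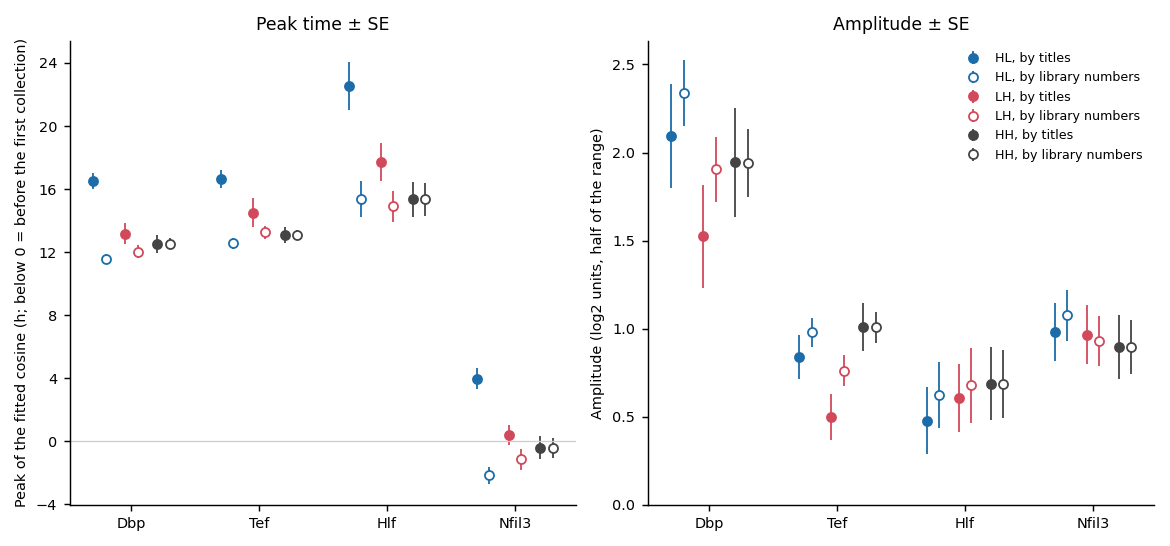
Peak time (left, h after the first collection, Nfil3 peaks before it drawn below 0) and amplitude (right, log2 units) of the fitted cosine, with bars of 1 SE, for each gene in HL (blue), LH (red) and HH (dark), filled by titles and open by library numbers. Filled HL points lie above the others in the left panel for all 4 genes, of which Hlf passed no adjusted cosine fit, and the open points of a gene lie close together.

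Rhythms were compared between treatments by testing whether the cosine terms of 2 treatments were equal, with Benjamini-Hochberg adjustment over all genes. By titles, 1 of the 4 genes differed between HH and HL, against 0.015% of all genes. This was Dbp, with an edgeR adjusted p of 0.0472, its peaks being 12.5 ± 0.56 h in HH and 16.5 ± 0.51 h in HL. Tef had an adjusted p of 0.0961, Nfil3 0.161 and Hlf 0.336 in the same comparison. All 4 genes had an unadjusted p below 0.05, as did 1317 of 13292 genes. Tef was also called with DESeq2 (adjusted p = 0.0296), with no filter on low counts (0.0146) and without HL replicate 4 (0.0419). The Dbp call was lost without HH replicate 1, 2, 3 or 4 (adjusted p 0.0842 to 0.257) and without HL replicate 1 or 2 (0.291 and 0.0742). It was also lost without LH replicate 2 (0.0552), without the library of 104912 counts (0.0573) and with the second sequencing run alone (0.14). By library numbers the adjusted p of Dbp was 0.85, and none of the 4 genes differed between HH and HL, where edgeR called 0 of 13198 genes (0%) and 723 had an unadjusted p below 0.05. Dbp was the only one of the 4 among those.

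None of the 4 genes differed in rhythm between LH and HL by titles, against 0.0677% of all genes, nor between LH and HH, against 0.0527%. For Dbp, Tef, Nfil3 and Hlf the unadjusted p of LH against HL was 0.000446, 0.0258, 0.00158 and 0.0714, with adjusted p of 0.205, 0.6, 0.353 and 0.708. An unadjusted p below 0.05 was held by 958 of 13292 genes there, and between LH and HH by 1277, of the 4 by Tef alone (0.0108). DESeq2 also called 0 of the 4. With no filter on low counts, edgeR called Dbp between LH and HL (adjusted p = 0.0101). By library numbers, none of the 4 differed between LH and HL (0.00758% of all genes) or LH and HH (0%), and the smallest unadjusted p of the 4 in these was 0.0624, for Tef between LH and HL.

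The spread within a treatment and collection differed between the readings over the same 38 libraries of HL and LH. For Dbp the pooled standard deviation of log2(CPM + 1) was 1.103 by titles and 0.64 by library numbers, beside 0.43 in HH. For Tef it was 0.53 and 0.34, beside 0.18, and for Nfil3 0.50 and 0.38, beside 0.41. For Hlf it was 0.57 and 0.54, beside 0.79 in HH. The 3 genes with the clearest time course in HH thus had a smaller spread by library numbers, and Hlf was spread widely in each case.

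Averaged over all collections, none of the 4 genes passed the test for a change in level between treatments, by edgeR in either reading or by DESeq2 with titles. The test asked for P below 0.01 over the 3 treatments and below 0.05 for the pair, which 1.16% of all genes passed for LH over HL, 1.2% for HH over HL and 0.91% for LH over HH by titles, and 1.34%, 0.568% and 1.63% by library numbers. By titles, Dbp averaged 23.9 ± 27.96 CPM in HL (SD, n = 21), 32.2 ± 31.8 in LH (n = 22) and 24.0 ± 20.9 in HH (n = 19), and Nfil3 9.72 ± 5.49, 10.4 ± 6.75 and 9.01 ± 4.67 CPM. Tef averaged 111 ± 61.4, 139 ± 57.3 and 124 ± 59.9 CPM, and its log2 fold change of LH over HL, 0.32 ± 0.15 (SE), had the smallest unadjusted p of the 4 genes over the pairs, 0.0366 (edgeR adjusted p = 0.835). By library numbers that fold change was 0.06 ± 0.08 (adjusted p = 0.919).

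Over the 4 genes, the median log2 fold change of LH over HL was 0.21 by titles and -0.09 by library numbers, beside 0.0013 and 0.0035 over all genes. The level of Hlf in HH turned on 1 replicate number. Its log2 fold change of HH over HL was -0.15 ± 0.20 (edgeR adjusted p = 0.90) by titles. Without HH replicate 4 it was -0.58 (unadjusted p = 0.00596), past the thresholds of the test, and LH over HH was 0.68 (unadjusted p = 0.00123).

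Across libraries, which needs no treatment or collection, Dbp and Tef rose and fell together. On log2(CPM + 1) over all 62 libraries their Pearson r was 0.94 and Spearman's rho 0.931 (2-sided permutation p = 1e-05 for each, the smallest that 100000 resamples can give, and 2e-05 adjusted over the 6 pairs of genes). The r without the 2 libraries farthest from the median of Dbp was 0.937, and within single treatments by titles it reached 0.941 for HL, 0.935 for LH and 0.952 for HH. Nfil3 ran against both. Its r was -0.719 with Dbp (rho -0.693, and r -0.712 without the 2 farthest) and -0.622 with Tef (rho -0.622, and r -0.62 without the 2 farthest), each with a permutation p of 1e-05 and an adjusted p of 2e-05 for r and rho. With the second sequencing run alone (59 libraries) the r of Nfil3 with Dbp was smaller, at -0.274 (adjusted permutation p = 0.0434), with a rho of -0.527 (adjusted p = 6e-05). The permutation treats libraries as exchangeable, whereas those of the same treatment and collection share its time course, so that these p can be too small. Within HL, LH and HH, r was -0.831, -0.66 and -0.738 with Dbp and -0.728, -0.546 and -0.719 with Tef.

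**Figure D4:**
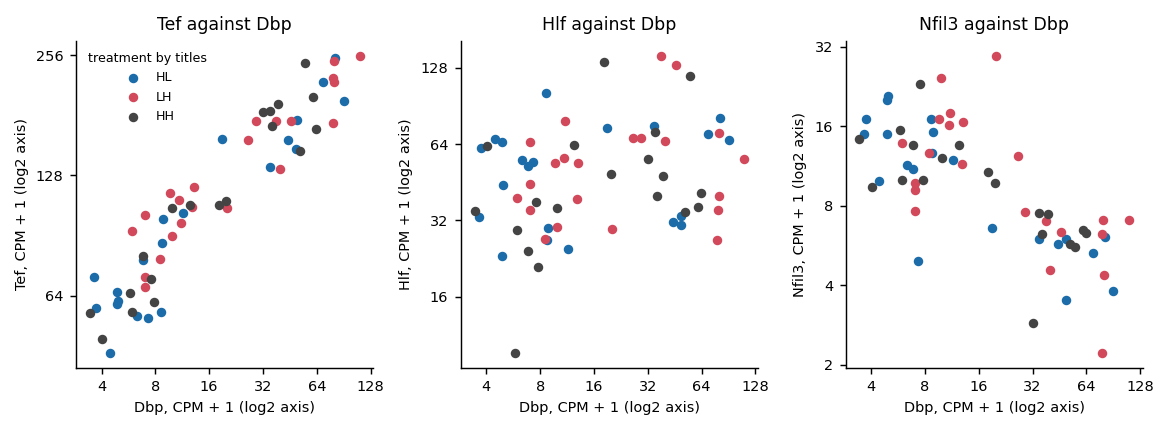
Tef, Hlf and Nfil3 (vertical axes) against Dbp (horizontal axes) in 62 libraries, as CPM + 1 on log2 axes, coloured by treatment. Tef rises with Dbp along 1 line in all 3 treatments, Nfil3 falls, and Hlf forms a cloud.

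Hlf was only loosely tied to the other 3 genes. Its r was 0.258 with Dbp (rho 0.262, permutation p = 0.0419 and 0.0395, adjusted 0.0502 and 0.0475), 0.275 with Tef (rho 0.293, p = 0.0298 and 0.0215, adjusted 0.0447 and 0.0323) and -0.211 with Nfil3 (rho -0.239, p = 0.099 and 0.0608, adjusted 0.099 and 0.0608). Without the 2 farthest libraries r was 0.243, 0.25 and -0.167. None of the 3 relations of Hlf had an adjusted permutation p for r below 0.05 within a single treatment, the smallest being 0.0635 for Tef and Hlf in HH (r = 0.466).

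Dbp and Tef also deviated together within groups. After the mean of each treatment and collection was taken off, the r of their deviations was 0.854 over 61 libraries by titles and 0.789 over 56 by library numbers. That of Dbp and Nfil3 was nearer 0, at -0.309 and 0.0481, and that of Dbp and Hlf -0.0413 and -0.288. These values are descriptions, since deviations within a group are not independent. Where a reading places a library in the wrong group, its deviation also holds the time course. HH alone was not computed.

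Among 9264 genes averaging at least 5 CPM, over the 61 libraries of at least 1000000 counts, the genes most like Dbp were Tef (r = 0.941), Nr1d2 (0.894), Bhlhe41 (0.875), Per3 (0.769) and Bhlhe40 (0.696), the last a DEC repressor like Bhlhe41. Those most like Tef were Dbp (0.941), Nr1d2 (0.872), Bhlhe41 (0.827), Per3 (0.763) and the tetraspanin gene Tspan4 (0.683). All 5 of the genes closest to Dbp, and 4 of the 5 closest to Tef, were thus each other or clock genes of the list. Nfil3 had the lowest r with Dbp of all these genes and the next to lowest with Tef.

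The genes most like Hlf were others altogether. They were Ranbp3l (r = 0.799), the growth factor gene Igf1 (0.794), Gclc (0.768), which encodes the catalytic subunit of the enzyme that begins glutathione synthesis, Ndrg3 (0.762) and Slc5a3 (0.752), a myo-inositol transporter gene. Tef ranked 1022 and Dbp 1118 by their likeness to Hlf. The genes most like Nfil3 were Ier5 (0.682), an immediate early gene, the interleukin receptor gene Il4ra (0.591), Medag (0.567), mt-Nd4 (0.540), a mitochondrial complex I gene, and Stat3 (0.524), and no clock gene of the list was among them. The genes most opposite to Nfil3 were Nr1d1 (-0.762), Dbp (-0.754) and Nr1d2 (-0.753). These likenesses are descriptions over libraries that share their treatments and times.

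Of a list of 6 known PAR bZIP targets, Pdxk (pyridoxal kinase), Por (cytochrome P450 reductase) and Alas1 (the first enzyme of haem synthesis) passed the filter, whereas the liver genes Nr1i3, Cyp2b10 and Cyp7a1 averaged at most 0.126 CPM. In LH by titles, Pdxk (JTK exact P = 0.00401) and Por (P = 0.00732) passed, 2 of 3 against 0.933% of all genes, with adjusted P of 0.905 and 0.93. They had amplitudes of 0.32 ± 0.07 and 0.19 ± 0.05 on the log2 scale and peaks at 17.0 ± 0.83 and 13.8 ± 0.99 h. In HL by titles 0 of 3 passed and in HH also 0 of 3, where Alas1 had an exact P of 0.0101. By library numbers, Pdxk passed in HL (exact P = 0.00893, adjusted P = 0.837, 1.03% of all genes, peak at 15.5 ± 0.89 h) and none of the 3 in LH.

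The C/EBP factors carry a related zipper and bind related sites. Of 6 listed (Cebpa, Cebpb, Cebpd, Cebpe, Cebpg and Ddit3), 5 passed the filter. By titles 0 of 5 passed JTK in HL, LH or HH, and by library numbers only Cebpg in LH (exact P = 0.00835, adjusted P = 0.676, 1.31% of all genes, amplitude 0.23 ± 0.09). None of the tested C/EBP or target genes differed in rhythm or level between treatments in either reading, and of the core clock genes only Nr1d1 differed in rhythm, between HL and each of LH and HH by titles.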

How the data were processed

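RNA 3′ ends were sequenced by a commercial 3′DGE service, which processed the reads with its own pipeline. Per the labels, the submitters' processing notes name bcl2fastq, STAR 2.6.0a, HTSeq 0.9.1 and mm10, and the deposited values are raw counts per gene in 121 files, with 2 sequencing runs for 59 of the 62 libraries. Whether counting used strand is not given in the sources used here. Runs were summed, and reads assigned to no gene (18.4 to 29.1%) were left out of totals. The 4 genes, lists and tests were chosen with earlier results of these data known.

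JTK_CYCLE was written again (period 24 h, phase steps of 2 h, corrected over phases). It was first run with a null distribution in which collections that tie on the cosine were merged. After those results were seen, it was set to the published null distribution, with 1 group per collection, and the first was kept as an alternative. EdgeR 4.0.16 (quasi-likelihood, TMM) compared cosine terms and levels, and DESeq2 1.42.0 was an alternative. Correlations used log2 of CPM plus 1. On simulated data, JTK found 190 of 200 rhythmic genes in HL with 50 false calls over 13292 genes. EdgeR found 180 of 200 differences in rhythm between LH and HL with 4 false calls, over 12945 genes. It found 200 of 200 differences in level with 68 false calls over the same genes. The planted rhythms had a 4-fold range and the planted levels a 2-fold change, in genes above 5 CPM. The simulated spread was that of groups by titles. Recovery of smaller ranges, such as those fitted for Hlf, was not tested. Genes named are the 4, the 5 most correlated with each, listed genes that were called or that a sentence needed beside a result, and genes overlapping the 4, with the genes most opposite to Nfil3 named after their values were seen. Alternatives were library numbers, single runs, no filter, other scalings, a replicate block and leaving out libraries. Of the 31053 gene identifiers, 30934 matched a symbol. Positions are from GENCODE and promoters from RefSeq (GRCm38.p6).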

Additional observations from a re-analysis of the deposited data

Results flagged for a closer look

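In groups of 4 libraries, 5 of 52 combinations of gene, group and reading had a library whose gap to the others exceeded Dixon's 95% limit. Chance gives about 1 in 20 for independent values with a normal spread. These values were CPM and shared libraries across genes and readings, so the count was not tested against it. By titles, Dbp was 77.46 CPM in LH replicate 4 of the third collection, where the other 3 libraries held 6.0 to 7.48 CPM, and Tef was 223.1 CPM in that library, beside 66.1 to 77.9 CPM. By titles, Dbp was also 37.01 CPM in LH replicate 1 of the last collection, where the others held 4.95 to 10.1 CPM. By library numbers, LH replicate 4 of the third collection held 6.299 CPM of Dbp, beside 43.3 to 48.3 CPM, and 53.22 CPM of Hlf, beside 29.7 to 32.3 CPM. The rhythm of Dbp differed between HH and HL by titles, with an edgeR adjusted p of 0.0472, a call that held in 9 of 20 alternatives.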

How the results depend on the processing

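By titles, 2 of the 4 genes were rhythmic in LH, which became 4 by library numbers, 1 with TMM scaling, with the first run alone, with the replicate block or without the library of 104912 counts, and 0 with the second run alone. By library numbers the 4 became 2 with the second run alone, and the 3 of HL also became 2 (Nfil3 lost). The 1 difference in rhythm between HH and HL became 2 (Dbp and Tef) with DESeq2 or no filter and 0 by library numbers, with the replicate block (adjusted p of Dbp 0.0756), with the second run alone (0.14) or without the library of 104912 counts. The adjusted p of Dbp ranged from 0.000229 to 0.85 over its alternatives. Between LH and HL, 1 gene (Dbp) differed with no filter. Leaving out replicates gave 0 to 2 rhythmic genes in HL, 0 to 2 in LH, 1 to 4 in LH by library numbers, 0 to 2 differences between HH and HL, and, in both readings, 0 to 1 changed levels (Hlf without HH replicate 4) for HH over HL and for LH over HH. Replicate numbers did not pair libraries: the median r of deviations was 0.00483 for the same number and -0.000941 for different numbers. For rhythmic genes, the replicate block gave 3 in HL (Tef added, JTK exact P = 0.00475), 1 in LH (Hlf lost, 0.0239) and 4 in HH (Hlf added, 0.00646, against 0.153 without the block). The cause of these changes was not tested.

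With the second run, the r of Dbp and Nfil3 was -0.274 in place of -0.719. The correlation of Dbp and Hlf passed adjustment with the first run (0.268), the second run (0.28) and without the library of 104912 counts (0.263), and that of Hlf and Nfil3 with the second run (-0.362). That of Tef and Hlf was lost with the second run (0.25) and within HL (0.0488), LH (0.273) and HH (0.466).

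No level passed the test where its sign turned. By library numbers, LH over HL (log2) was -0.1111 for Dbp, -0.1774 for Hlf and -0.07553 for Nfil3, LH over HH was -0.1294 for Dbp, and HH over HL was -0.01488 for Tef. With the second run alone, Nfil3 was -0.2313 in LH over HL and -0.03889 in LH over HH by titles, and -0.08474 in LH over HH and 0.06956 in HH over HL by library numbers. By library numbers, Dbp in HH over HL was -0.08634 and Tef in LH over HL -0.003985 with the second run, and Tef in HH over HL was 0.01031 with the first. With replicates left out, by titles, LH over HL ranged over Hlf -0.03427 to 0.1729, Nfil3 -0.05398 to 0.1193, and HH over HL ranged over Dbp -0.01313 to 0.2329, Hlf -0.5776 to 0.002444, and LH over HH ranged over Dbp -0.1209 to 0.3935. With replicates left out, by library numbers, LH over HL ranged over Dbp -0.2215 to 0.03203, Hlf -0.3785 to 0.1981, and HH over HL ranged over Dbp -0.05029 to 0.1551, Tef -0.05498 to 0.02382, Hlf -0.6331 to 0.1447, and LH over HH ranged over Dbp -0.2634 to 0.01299, Hlf -0.1469 to 0.4788, Nfil3 -0.0308 to 0.1567.

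Over all genes, the merged null distribution called 0.82% of genes for HL, 1.53% for LH and 1.99% for HH by titles, where the published one called 0.466%, 0.933% and 1.22%, and 1.82%, 2.14% and 2% by library numbers, where it called 1.03%, 1.31% and 1.23%. The calls of the 4 genes at P below 0.01 were the same under both. After adjustment, the merged null also called Tef in HH (adjusted P 0.004 against 0.105 by titles) and Nfil3 in HL by library numbers (0.00544 against 0.0883). JTK in HL by titles called 32 genes with the second run and 109 with the block. Differences in rhythm by titles (9 for LH and HL, 2 for HH and HL, 7 for LH and HH) became 83, 51 and 78 with no filter, and 17 for HH and HL with DESeq2, 10 with the first run and 1 with the block or without the shallow library. They became 5 for LH and HL with either run alone and 0 for LH and HH with the second. By library numbers the 1 of LH and HL became 0 with either run, and the 0 of HH and HL became 1 with the second. Changed levels by titles (154, 160 and 121) became 387, 399 and 335 with no filter.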
